A study of Mus musculus with 8 samples.

Results

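The autophagy core and lysosome genes are a set of 32 genes listed by function, from the kinase complex that starts autophagy to the enzymes and the proton pump of the lysosome. They were found in the deposited table by matching its Ensembl gene IDs to symbols of the mouse annotation GENCODE M21. Of the 32 genes, 31 had values among the 48328 genes of the table, and all 31 passed the filter on low values that left 10521 genes to test. Map1lc3b, which encodes the most studied form of LC3, is not analysed here. No measured value was used to choose the members, although they were listed with earlier results of these data known.

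Autophagy encloses cytoplasm, protein aggregates or whole mitochondria in a double membrane, the autophagosome, and delivers them to the lysosome, where acid hydrolases break them down. A kinase complex around ULK1 starts the process, a lipid kinase complex that holds Beclin 1 marks the membrane, the ATG proteins attach the ubiquitin-like proteins of the LC3 and GABARAP families to it, and the transcription factors TFEB and TFE3 drive many autophagy and lysosome genes. In skeletal muscle, autophagy clears damaged mitochondria, and both too little and too much of it are known to harm fibres.

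The tissue was tibialis anterior, the fast muscle at the front of the lower leg, from C57BL/6J mice aged 24 months, with 4 K320E-skm and 4 wild-type libraries of total RNA, 2 labelled male and 2 labelled female in each genotype. Twinkle is the helicase that unwinds mitochondrial DNA for replication, K320E is a mutant form of it that acts dominantly, and K320E-skm mice express that form in skeletal muscle, so that mitochondrial DNA alterations build up there with age. The labels do not name the promoter or recombinase that drives it, and wild-type animals carried no stated transgene. The question was how old muscle with the mutant helicase differs from wild-type muscle of the same age, here for each step of autophagy.

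Values are FPKM, fragment numbers scaled to transcript length and to all mapped fragments of a library, so levels can be compared between genes. The depth is unknown in absolute terms, as no counts are given, and relative to each other the libraries ranged from 1.0 to 1.32. Twnk, the gene for Twinkle, was at 3.82 to 5.06 FPKM in K320E-skm and 2.16 to 2.70 FPKM in wild-type muscle, with no overlap, in the direction of the genotype labels. The library labelled as male K320E-skm 4 had 10.2 FPKM of the X-inactivation transcript Xist and 0.0117 FPKM of the Y-linked Ddx3y, which goes against its sex label. Wild-type 1 also stood apart. Its values were 1.27 times those of the typical library by the median ratio over genes, against 0.906 to 1.03 times for the other 7, and it had the lowest share of FPKM on the mitochondrial genome (44.0%, against 49.8% to 59.8%). The median gene of all 10521 tested had a log2 fold change of −0.14 between K320E-skm and wild-type muscle (−0.06 without wild-type 1), so members are also given after median-ratio rescaling, which moved that median to 0. As deposited, the muscle fibre genes Ckm, Myh1, Myh2, Tnnt3, Mylpf, Mb and Des summed to 20940 to 24744 FPKM in K320E-skm and 25469 to 26564 FPKM in wild-type muscle. The sums did not overlap (exact two-sided permutation p = 0.0286), and none of the genes was listed at 0. Singly, 3 of the 7 genes had log2 fold changes above 0 and 4 below (median −0.155), with 0 at an unadjusted limma p under 0.05. On the rescaled scale 5 were above 0 and 2 below (median 0.02), and all 7 overlapped between the genotypes. The sum was not compared on that scale, so its lack of overlap holds for the deposited scale only. The part of these differences between libraries in the members' values was not tested. In whole muscle, fewer cells of a type and less RNA per cell cannot be told apart.

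No member differed between the genotypes past the threshold, a Benjamini-Hochberg adjusted p of 0.05 from limma over all genes tested. The smallest adjusted p of a member was 0.337, and across all genes 0.019% passed, which is 2 genes. Log2 fold changes, K320E-skm minus wild-type on the scale of log2(FPKM + 1), ran from −0.37 for the initiation gene Rb1cc1 to 0.51 for the proton pump gene Atp6v1h, with a median of −0.06. Of the 31 members, 9 were above 0 and 22 below, while 20.5% of all tested genes were above 0. The number above 0 rose to 19 without wild-type 1 and dropped to 4 without K320E-skm 2. Set against the median gene, 22 of 31 lay above it and 9 below, and without single libraries 20 to 23 lay above it.

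At an unadjusted limma p under 0.05, 1 member was higher in K320E-skm muscle, Atp6v1h, which is 3.23% of the members against 1.12% of all genes tested, and 1 was lower, Rb1cc1, against 12.0% of all genes. No member had all K320E-skm libraries above all wild-type libraries, a pattern found in 0.333% of all genes. The opposite pattern was found in Rb1cc1 and Atg12, 6.45% of the members against 9.59% of all genes. After median-ratio rescaling the split of the members turned to 23 above 0 and 8 below, with a median of 0.08, again with no adjusted p under 0.05 (smallest 0.360). On that scale 4 members were higher at an unadjusted limma p under 0.05, Atp6v1h, Ctsd, Ctsl and Wipi2, 12.9% of the members against 5.08% of all genes, and none was lower, against 4.77%. Wipi2, Nbr1, Ctsd and Atp6v1h then had all K320E-skm libraries above all wild-type libraries, 12.9% of the members against 2.89% of all genes, and none showed the reverse, against 3.07%. In a fit with no term for the sex label, which does not rest on the doubtful label, Atp6v1h and Ctsl were higher at an unadjusted limma p under 0.05 (1.07% of all genes) and Rb1cc1 lower (13.6% of all genes). If K320E-skm 4 was female, as its Xist and Ddx3y values have it, the sexes were not balanced between the genotypes. The fit with no sex term does not account for that.

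**Figure D1:**
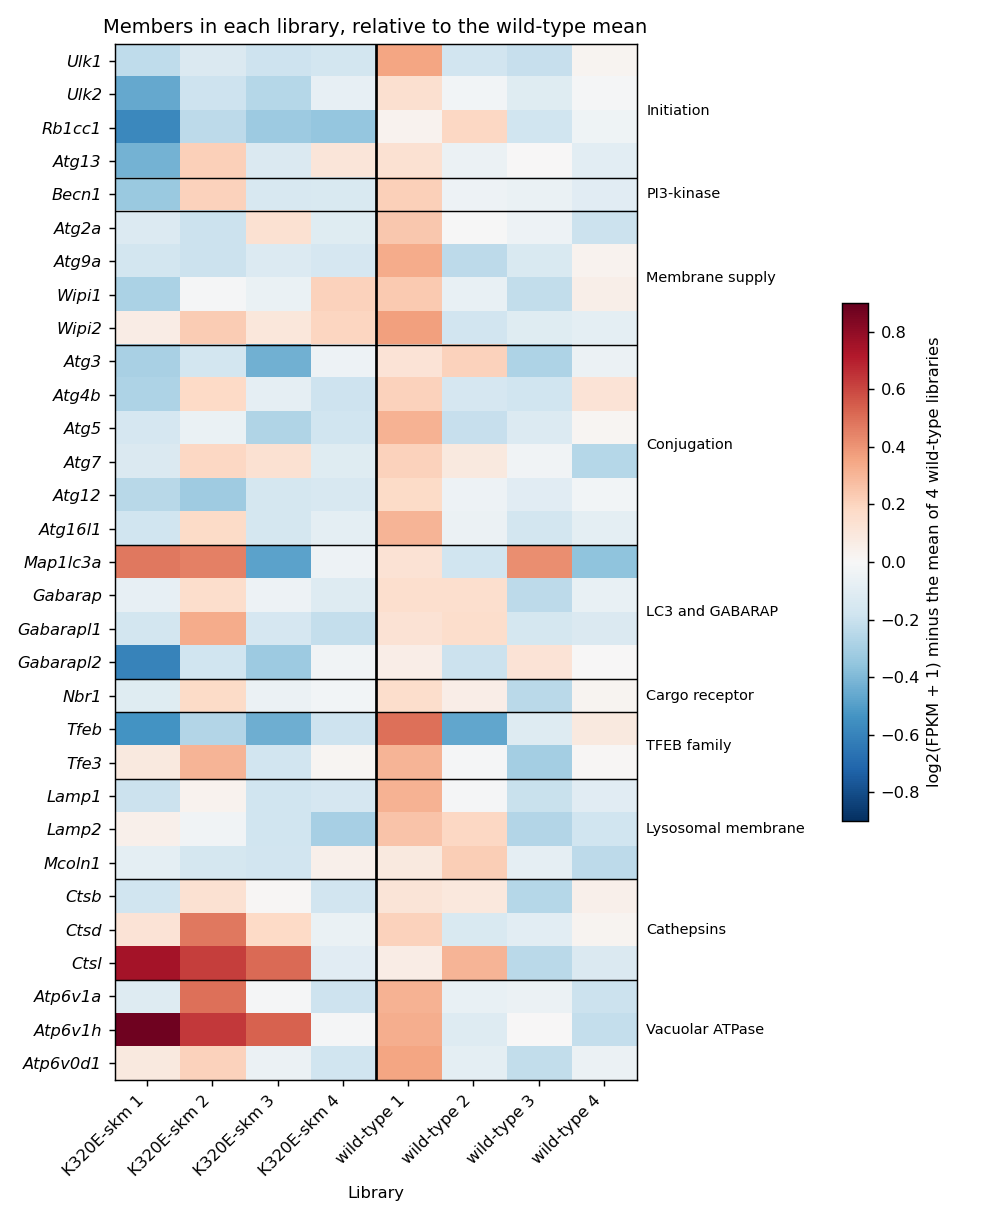
Each row is a member and each column a library, and the colour is log2(FPKM + 1) minus the mean of the 4 wild-type libraries, with members grouped by step. Red fills most of the column of wild-type 1, which held the highest value of all 8 libraries for 16 of 31 members, and the darkest red lies in Ctsl and Atp6v1h of K320E-skm 1 to 3.

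Between libraries, the members followed the other genes. Wild-type 1 held the highest wild-type value for 23 of 31 members, and for 67.7% of all tested genes. The median member stood 0.21 above the wild-type mean in wild-type 1 and at −0.05, −0.13 and −0.05 in wild-type 2, 3 and 4, where the median of all genes stood at 0.21, −0.03, −0.11 and −0.07 (log2 scale). In K320E-skm 1, 3 and 4 the median member was at −0.16, −0.14 and −0.11, near the medians of all genes at −0.18, −0.19 and −0.15. K320E-skm 2 differed, with the median member at 0.16 and the median of all genes at −0.06, and it held the highest value of all 8 libraries for 8 members.

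**Figure D2:**
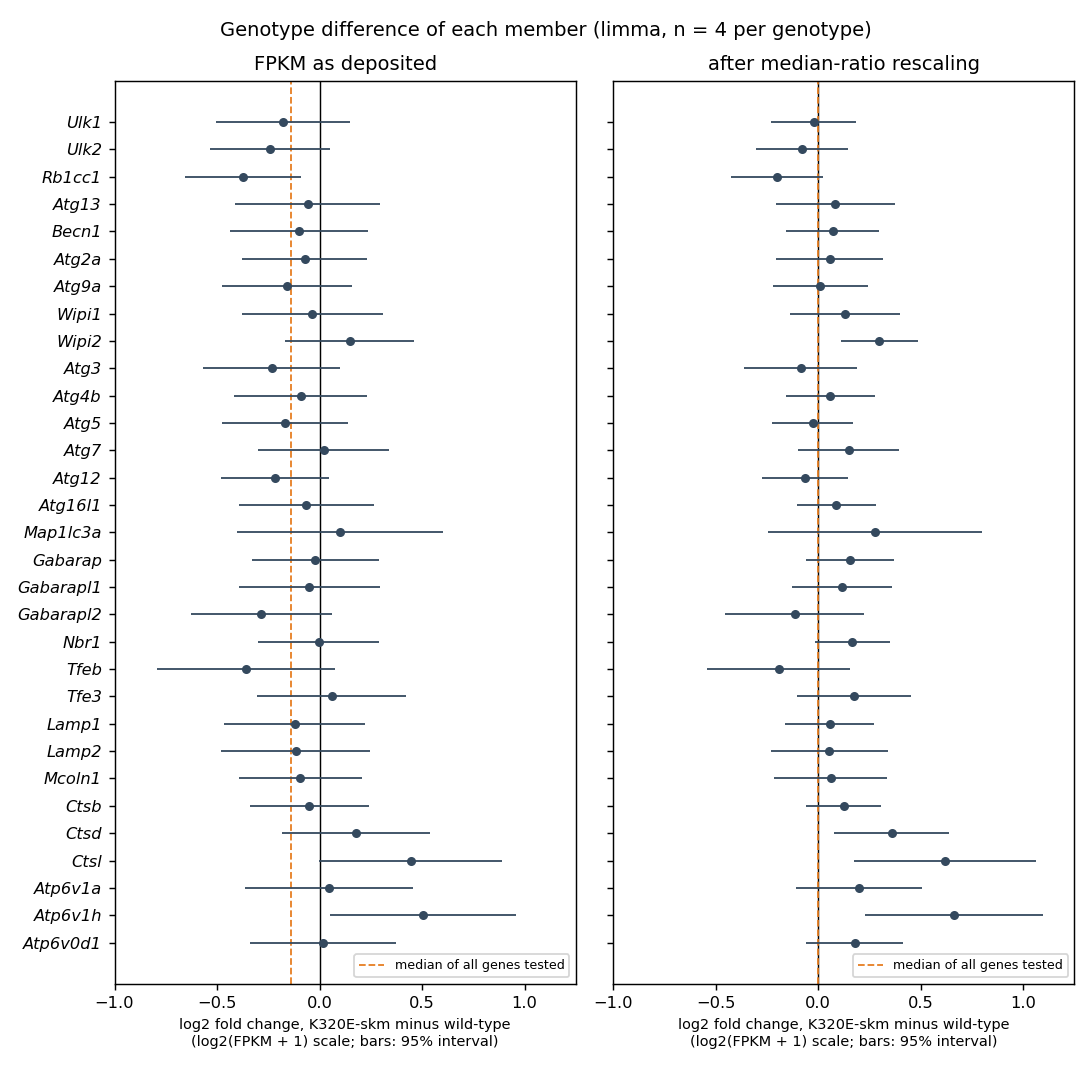
Points are log2 fold changes of the 31 members from limma (n = 4 per genotype), bars their 95% intervals, for FPKM as deposited (left) and after median-ratio rescaling (right), and the dashed line is the median of all genes tested. On the left only the intervals of Rb1cc1 and Atp6v1h leave out 0, and on the right those of Wipi2, Ctsd, Ctsl and Atp6v1h do.

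The initiation genes encode the kinases ULK1 and ULK2, the scaffold FIP200 (Rb1cc1) and the adaptor ATG13. Their median log2 fold change of −0.21, or −0.05 after rescaling, was the lowest of any step with more than 1 member. Rb1cc1 (ENSMUSG00000025907, chromosome 1, 6206197 to 6276648, GRCm38) measured 18.3, 23.5, 22.0 and 21.7 FPKM in K320E-skm libraries 1 to 4, against 28.5, 31.9, 24.5 and 27.1 FPKM in wild-type libraries 1 to 4. Every K320E-skm library thus lay below every wild-type library, although the highest of the first and the lowest of the second were close. Rb1cc1 averaged 21.4 ± 2.19 and 28.0 ± 3.09 FPKM (SD, n = 4 each; exact permutation p = 0.0286, two-sided, which is the lower limit for this design), with a log2 fold change of −0.37 (95% interval −0.66 to −0.09) and an adjusted p of 0.337 from limma. After rescaling it was −0.20 and the genotypes overlapped. Its unadjusted limma p was then 0.0728, and it was 0.0700 after quantile normalization and 0.145 after scaling to the summed FPKM outside the mitochondrial genome. On the deposited scale, leaving out single libraries kept its unadjusted limma p under 0.05 in 7 of 8 fits, the exception being the fit without K320E-skm 3. In those fits 623 of 10405 genes (without K320E-skm 3) to 1775 of 10387 (without wild-type 3) were lower at that p. Its exons overlap those of 4732440D04Rik on the other strand, which averaged 2.06 and 1.71 FPKM.

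Ulk2, one of the kinases, was at 7.91, 9.78, 9.27 and 10.7 FPKM in K320E-skm libraries 1 to 4, against 12.6, 11.1, 10.4 and 11.2 FPKM in wild-type libraries 1 to 4. The genotypes overlapped in that K320E-skm 4 lay above wild-type 3 (log2 fold change −0.24, SE 0.13, exact permutation p = 0.0571). On the rescaled scale Ulk2 had −0.08 (exact permutation p = 0.371). Its close relative Ulk1, the kinase best known from nutrient sensing, averaged 5.29 ± 0.176 and 6.19 ± 1.35 FPKM (SD, n = 4 each), and 8.10 FPKM in wild-type 1 made most of the wild-type spread. The level of Ulk2 was 1.55 to 2.08 times that of Ulk1 across the 8 libraries. Atg13 averaged 4.08 ± 0.952 and 4.22 ± 0.379 FPKM (log2 fold change −0.06, SE 0.16).

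Becn1, which encodes Beclin 1 and is the sole member of the lipid kinase complex, was at 17.5, 25.9, 20.1 and 20.2 FPKM in K320E-skm libraries 1 to 4, against 26.0, 21.6, 21.3 and 20.7 FPKM in wild-type libraries 1 to 4. Both genotypes had a single library near 26 FPKM, and the log2 fold change was −0.10 (SE 0.15).

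Among the genes for membrane supply, Atg2a encodes a lipid transfer protein, Atg9a a lipid scramblase of the vesicles that seed the membrane, and Wipi1 and Wipi2 proteins that bind the lipid made by the Beclin 1 complex. Wipi2, which recruits the conjugation machinery, was at 5.30, 6.04, 5.45 and 5.87 FPKM in K320E-skm libraries 1 to 4, against 6.76, 4.34, 4.58 and 4.68 FPKM in wild-type libraries 1 to 4. All 4 K320E-skm libraries lay above wild-type 2, 3 and 4 and below wild-type 1. Its log2 fold change was 0.15 (SE 0.14, limma adjusted p = 0.641), and 0.30 after rescaling (limma adjusted p = 0.360). Leaving out single libraries moved it between 0.08 without wild-type 3 and 0.27 without wild-type 1. Atg9a averaged 15.2 ± 0.342 and 17.2 ± 3.26 FPKM (SD, n = 4 each), again with the highest value, 21.7 FPKM, in wild-type 1. Wipi1 and Atg2a had log2 fold changes of −0.04 (SE 0.15) and −0.07 (SE 0.14), at means of 11.7 and 2.21 FPKM in K320E-skm and 12.0 and 2.39 FPKM in wild-type muscle.

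The conjugation genes encode the enzymes that attach LC3 and GABARAP proteins to lipid. ATG7 activates, ATG3 transfers, ATG4B trims and removes, and ATG12, ATG5 and ATG16L1 form the complex that sets the place. Atg12 (ENSMUSG00000032905) was at 5.29, 4.98, 5.70 and 5.74 FPKM in K320E-skm libraries 1 to 4, against 7.42, 6.22, 5.95 and 6.35 FPKM in wild-type libraries 1 to 4. The genotypes did not overlap, with 5.74 and 5.95 FPKM as the nearest values (means 5.43 ± 0.361 and 6.48 ± 0.643 FPKM, SD, n = 4 each, exact permutation p = 0.0286). The log2 fold change was −0.22 (SE 0.12, limma adjusted p = 0.437), and −0.06 with overlap after rescaling.

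Atg3 was at 3.56 to 4.97 FPKM in K320E-skm and 4.07 to 6.11 FPKM in wild-type muscle (log2 fold change −0.23, SE 0.15, −0.09 rescaled). Atg5, the partner of Atg12, averaged 3.12 ± 0.252 and 3.66 ± 0.762 FPKM (SD, n = 4 each). Atg4b was at 5.32 ± 0.886 and 5.74 ± 0.913 FPKM. These 3 genes had overlapping genotypes, and so did the remaining pair. Atg16l1 averaged 5.29 ± 0.737 and 5.60 ± 1.02 FPKM, and Atg7, the activating enzyme, 2.53 ± 0.400 and 2.49 ± 0.467 FPKM, the smallest difference of the step (log2 fold change 0.02, SE 0.14, 95% interval −0.30 to 0.34).

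The LC3 and GABARAP genes encode the small proteins that coat the autophagosome and hold its cargo. Map1lc3a, whose log2 fold change of 0.10 had the largest SE of the members (0.22), was at 120, 119, 61.6 and 83.9 FPKM in K320E-skm libraries 1 to 4, against 94.5, 76.1, 116 and 66.9 FPKM in wild-type libraries 1 to 4. The range within either genotype was far wider than the difference of the means, 96.1 ± 28.5 and 88.4 ± 21.7 FPKM (SD, n = 4 each). Gabarap was steady, at 50.6 to 61.3 FPKM in K320E-skm and 46.5 to 61.0 FPKM in wild-type muscle. Gabarapl2 was at 13.2, 18.1, 16.2 and 20.2 FPKM in K320E-skm libraries 1 to 4, against 21.5, 17.9, 22.5 and 20.7 FPKM in wild-type libraries 1 to 4. The lowest was 13.2 FPKM in K320E-skm 1 (log2 fold change −0.28, SE 0.15, limma adjusted p = 0.439). On the rescaled scale Gabarapl2 had −0.11. Gabarapl1 averaged 14.6 ± 2.99 and 15.0 ± 1.86 FPKM, with the highest value, 19.1 FPKM, in K320E-skm 2. Gabarap was at 3.22 to 3.97 times the level of Gabarapl1 across the 8 libraries.

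Nbr1, a receptor that links ubiquitin-marked cargo to LC3, was at 17.3, 21.2, 18.0 and 18.3 FPKM in K320E-skm libraries 1 to 4, against 20.97, 19.5, 15.6 and 19.0 FPKM in wild-type libraries 1 to 4. The means nearly coincided (18.7 and 18.8 FPKM, log2 fold change −0.00, SE 0.13). Rescaling gave 0.17 with all K320E-skm libraries above the wild-type libraries (limma adjusted p = 0.544).

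Of the TFEB family, Tfeb (ENSMUSG00000023990, chromosome 17, 47737030 to 47792419) measured 8.74, 10.8, 9.47 and 11.4 FPKM in K320E-skm libraries 1 to 4, against 19.0, 9.23, 12.1 and 14.1 FPKM in wild-type libraries 1 to 4. The genotypes overlapped, wild-type 2 lay among the K320E-skm libraries, and wild-type 1 was far above the rest. The log2 fold change was −0.36 (SE 0.19, limma adjusted p = 0.440). It was −0.20 without wild-type 1, −0.51 without wild-type 2, where its unadjusted limma p was under 0.05, and −0.19 after rescaling. Tfe3 was lower in level in every library, at 1.26 to 2.15 FPKM in K320E-skm and 1.06 to 2.15 FPKM in wild-type muscle (log2 fold change 0.06, SE 0.16), and Tfeb was at 5.02 to 11.3 times its level.

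TFEB and TFE3 are known to bind E-boxes of the letters CACGTG in the promoters of lysosomal genes, most often with flanks that give TCACGTGA. Promoter windows from RefSeq (GRCm38.p6), from 250 bases before to 50 bases after each start, were at hand for 25 of the 32 members. Both words read the same on both strands, and the longer word holds the shorter. In the windows of 9 of 25 members (36.0%) CACGTG was found, namely Atg3, Atg5, Atg7, Atp6v0d1, Atp6v1a, Ctsd, Ctsl, Lamp1 and Mcoln1, against 8.09% of 27025 genes. Among 125 other genes of the same steps with a window, described further below, CACGTG was found in 26 (20.8%) and TCACGTGA in 9 (7.2%). TCACGTGA stood in 5 members (20.0%) against 1.12% of genes. The stretches below, 5′ to 3′ on the strand of the gene with each CACGTG in capitals, show the sites of those 5 and of Ctsl, the cathepsin with the highest fold change, and the 4 cores that stand within 100 bases before the start of Lamp1.
Atg3 (chr16:45158748-45158773, plus strand): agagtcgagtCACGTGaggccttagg
Mcoln1 (chr8:3500464-3500489, plus strand): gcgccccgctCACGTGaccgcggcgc
Ctsd (chr7:142387910-142387935, minus strand): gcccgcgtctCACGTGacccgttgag
Atp6v1a (chr16:44139375-44139400, minus strand): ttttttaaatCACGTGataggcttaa
Atp6v0d1 (chr8:105566052-105566077, minus strand): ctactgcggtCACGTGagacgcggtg
Ctsl (chr13:64370741-64370766, minus strand): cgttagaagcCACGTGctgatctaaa
Lamp1 (chr8:13159061-13159160, plus strand): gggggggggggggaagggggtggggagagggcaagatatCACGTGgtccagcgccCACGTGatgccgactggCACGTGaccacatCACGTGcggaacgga

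The core began 71 bases before the RefSeq start in Atg3, 45 in Mcoln1, 98 in Ctsd, 131 in Atp6v1a, 3 in Atp6v0d1 and 236 in Ctsl. In GENCODE M21, all 26 bases of the Ctsd and Mcoln1 stretches and 13 of those of Ctsl lie in annotated exons. The 9 members with the core had log2 fold changes of −0.23 to 0.44 with a median of 0.02, 5 of them above 0, and the 15 measured members with a window that lacks it had −0.36 to 0.15 with a median of −0.07, 2 of them above 0. This is a description of letters in a window, and binding was not measured.

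The lysosomal membrane genes encode the abundant membrane glycoproteins LAMP1 and LAMP2 and the calcium channel mucolipin 1 (Mcoln1). Lamp1 was at 86.7, 102, 87.6 and 89.2 FPKM in K320E-skm libraries 1 to 4, against 123, 98.5, 86.1 and 92.5 FPKM in wild-type libraries 1 to 4, with K320E-skm 2 and wild-type 1 above their groups. Lamp2 was at 16.1 to 20.8 FPKM in K320E-skm and 16.6 to 24.3 FPKM in wild-type muscle. Mcoln1 was at 5.67 to 6.77 and 5.39 to 7.79 FPKM. The log2 fold changes of Lamp1, Lamp2 and Mcoln1 were −0.12, −0.12 and −0.09 (SE 0.15, 0.16 and 0.13), close to that of the median gene, and Lamp1 was at 4.16 to 5.53 times the level of Lamp2.

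The cathepsins are the proteases of the lysosome, and their median log2 fold change of 0.18, or 0.36 after rescaling, was the highest of the steps with more than 1 member. It stayed the highest without any single library, at 0.08 (without K320E-skm 2) to 0.28 (without wild-type 1), but not with the filter of 5 FPKM, which leaves the proton pump genes with 2 members and a median of 0.26. Ctsl (ENSMUSG00000021477, chromosome 13, 64359337 to 64370890), a cysteine protease known to be raised in wasting muscle, was at 58.6, 53.6, 49.7 and 32.1 FPKM in K320E-skm libraries 1 to 4, against 36.2, 43.0, 29.0 and 31.5 FPKM in wild-type libraries 1 to 4. K320E-skm 1, 2 and 3 lay above every wild-type library, and K320E-skm 4 lay among them. Ctsl averaged 48.5 ± 11.5 and 34.9 ± 6.14 FPKM (SD, n = 4 each), 1.39 times as much in K320E-skm muscle (exact two-sided permutation p = 0.0857). The log2 fold change was 0.44 (95% interval −0.00 to 0.89) with an unadjusted p of 0.0506 and an adjusted p of 0.380 from limma. It was 0.62 after rescaling (limma adjusted p = 0.383), and leaving out single libraries moved it between 0.28 without K320E-skm 1 and 0.62 without K320E-skm 4 (limma adjusted p = 0.346 in the latter). Its exons overlap those of Gm49230 on the same strand and Gm47123 on the other, whose values are not analysed here.

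Ctsd, an aspartic protease and the member with the highest level, was at 178, 227, 184 and 156 FPKM in K320E-skm libraries 1 to 4, against 188, 148, 152 and 166 FPKM in wild-type libraries 1 to 4. K320E-skm 2 stood above and the others overlapped with wild-type values (means 186 ± 29.7 and 163 ± 18.0 FPKM, SD, n = 4 each). The log2 fold change was 0.18 (SE 0.16, limma adjusted p = 0.617), and after rescaling 0.36 with no overlap (limma adjusted p = 0.410). On the deposited scale it was 0.08 without K320E-skm 2, 0.11 without wild-type 2 and 0.28 without wild-type 1. Its exons overlap those of Gm49369 on the same strand, which averaged 7.91 ± 1.98 and 11.7 ± 10.7 FPKM (SD, n = 4 each). Ctsb, a further cysteine protease, was at 28.8 to 36.1 FPKM in K320E-skm and 27.2 to 35.5 FPKM in wild-type muscle (log2 fold change −0.05, SE 0.13), so the 3 cathepsins did not share a direction on the deposited scale.

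**Figure D3:**
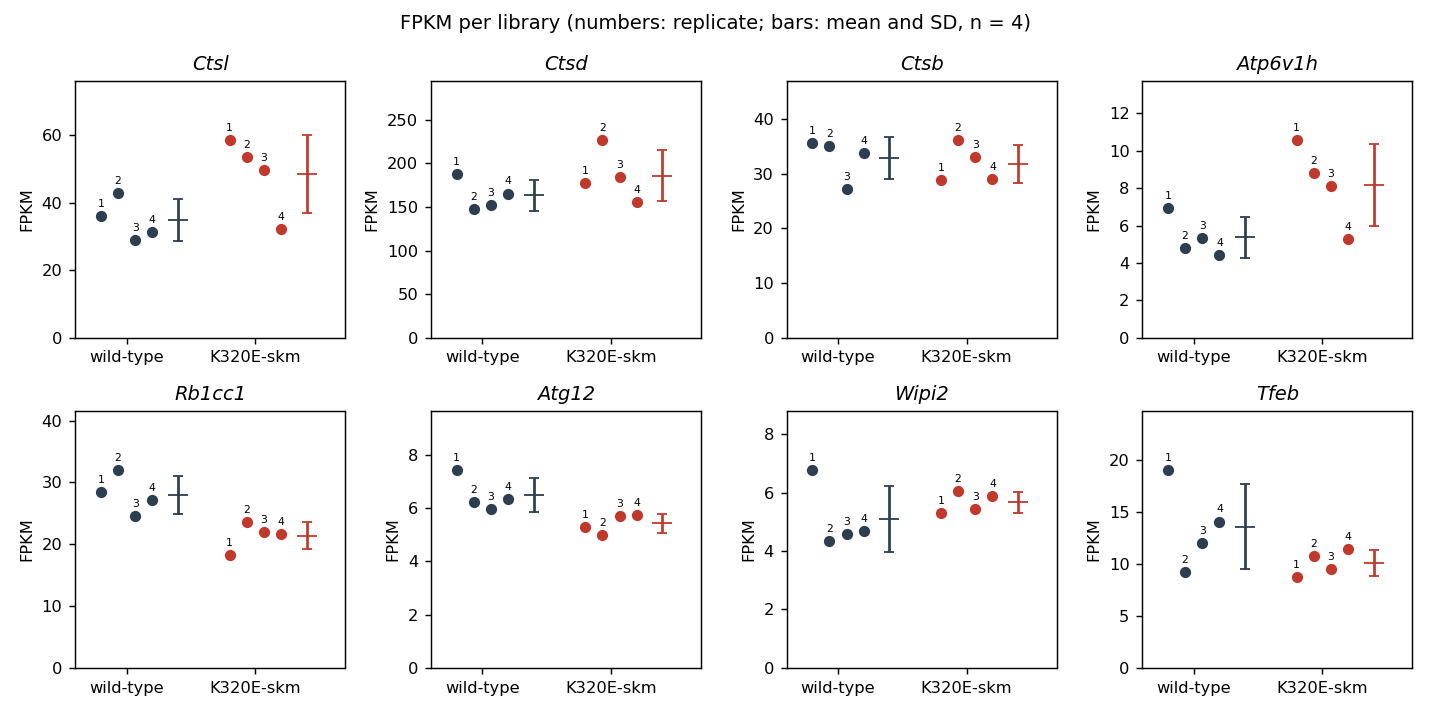
FPKM of 8 members in each library, numbered by replicate, with the mean and SD of each genotype beside the points (n = 4 each). K320E-skm 4 sits with the wild-type points for Ctsl and Atp6v1h, wild-type 1 is the highest point for Tfeb, Wipi2 and Atg12, and only Rb1cc1 and Atg12 show no overlap.

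The vacuolar ATPase pumps protons into the lysosome. Atp6v1h (ENSMUSG00000033793, chromosome 1, 5070018 to 5162529) encodes subunit H, which regulates the coupling of the cytosolic part to the membrane part. This gene measured 10.6, 8.78, 8.09 and 5.26 FPKM in K320E-skm libraries 1 to 4, against 6.93, 4.82, 5.31 and 4.44 FPKM in wild-type libraries 1 to 4. As for Ctsl, K320E-skm 1, 2 and 3 lay above every wild-type library and K320E-skm 4 lay among them. Atp6v1h averaged 8.17 ± 2.20 and 5.37 ± 1.10 FPKM (SD, n = 4 each), 1.52 times as much in K320E-skm muscle (exact two-sided permutation p = 0.0857). The log2 fold change of 0.51 (95% interval 0.05 to 0.96) had an unadjusted p of 0.0327 and an adjusted p of 0.355 from limma. It was 0.66 after rescaling, where the genotypes no longer overlapped (limma adjusted p = 0.369), 0.73 without K320E-skm 4 (limma adjusted p = 0.310) and 0.38 without K320E-skm 1. Leaving out single libraries kept an unadjusted limma p under 0.05 in 2 of 8 fits, those without K320E-skm 4 and without wild-type 1.

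Atp6v1a, the catalytic subunit of the same cytosolic part, was at 4.73, 7.76, 5.16 and 4.45 FPKM in K320E-skm libraries 1 to 4, against 6.72, 4.92, 4.997 and 4.41 FPKM in wild-type libraries 1 to 4. Here K320E-skm 2 alone stood above the wild-type range (log2 fold change 0.05, SE 0.18). The ratio of Atp6v1h to Atp6v1a, chosen after its values were seen, was 2.23, 1.13, 1.57 and 1.18 in K320E-skm 1 to 4 and 0.98 to 1.06 in wild-type muscle, with no overlap. All other ratios between members that were computed overlapped between the genotypes. Atp6v1h is also the member with the highest log2 fold change, so this ratio is not a separate result. Atp6v0d1, which encodes a subunit that joins the membrane part to the stalk, averaged 8.16 ± 1.05 and 8.11 ± 1.66 FPKM (SD, n = 4 each; log2 fold change 0.02, SE 0.16).

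Cathepsins and other lysosomal genes are also abundant in macrophages, so the macrophage genes are given beside them. The 16 macrophage genes on the list, from Cd68 to Laptm5, summed to 169, 137, 128 and 60.1 FPKM in K320E-skm libraries 1 to 4, against 167, 125, 54.5 and 57.3 FPKM in wild-type libraries 1 to 4. Wild-type 1 thus lay between K320E-skm 1 and 2, wild-type 2 was just below K320E-skm 3, and K320E-skm 4, which was lowest of its genotype for Ctsl and Atp6v1h, was also lowest for this sum. Of the 14 macrophage genes tested, 12 had log2 fold changes above 0 (85.7%, against 20.5% of all genes). Of the 14, 0 passed the adjusted or the unadjusted limma threshold of 0.05 (exact permutation p of the sum = 0.429). After rescaling all 14 were above 0 with a median of 0.36, against 49.7% of all genes above 0. Of these 14, 1 gene, Cd68, had an unadjusted limma p under 0.05 (7.14%, against 5.08% of all genes higher). The cathepsin median on that scale, also 0.36, was the value of Ctsd, between Ctsb at 0.12 and Ctsl at 0.62. The macrophage list itself holds a cathepsin gene, Ctss. None of the 16 was listed at 0. The part of macrophages in the cathepsin values was not tested. Summed FPKM of the other cell types, in K320E-skm and then in wild-type muscle, were 97.9 to 118 and 99.1 to 194 for adipocytes, 32.9 to 41.2 and 38.5 to 50.0 for endothelium, and 187 to 289 and 174 to 475 for fibroblasts. For red blood cells they were 133 to 278 and 222 to 370, for Schwann cells 11.9 to 16.3 and 14.8 to 29.6, and for smooth muscle 26.1 to 39.8 and 35.5 to 67.7. All 6 overlapped between the genotypes. Singly, as deposited, 0 of 4 adipocyte, 0 of 5 endothelium, 0 of 5 red blood cell and 0 of 3 smooth muscle genes tested were above 0. For fibroblasts 1 of 5 was, and for Schwann cells 1 of 4, against 20.5% of all genes. At an unadjusted limma p under 0.05, 1 endothelium gene (20.0%) and 2 Schwann cell genes (50.0%) were lower, against 12.0% of all genes, and none of the other lists. The satellite cell genes Pax7 and Myf5 were below the filter, at 0.244 to 0.614 and 0.278 to 0.859 FPKM in sum.

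**Figure D4:**
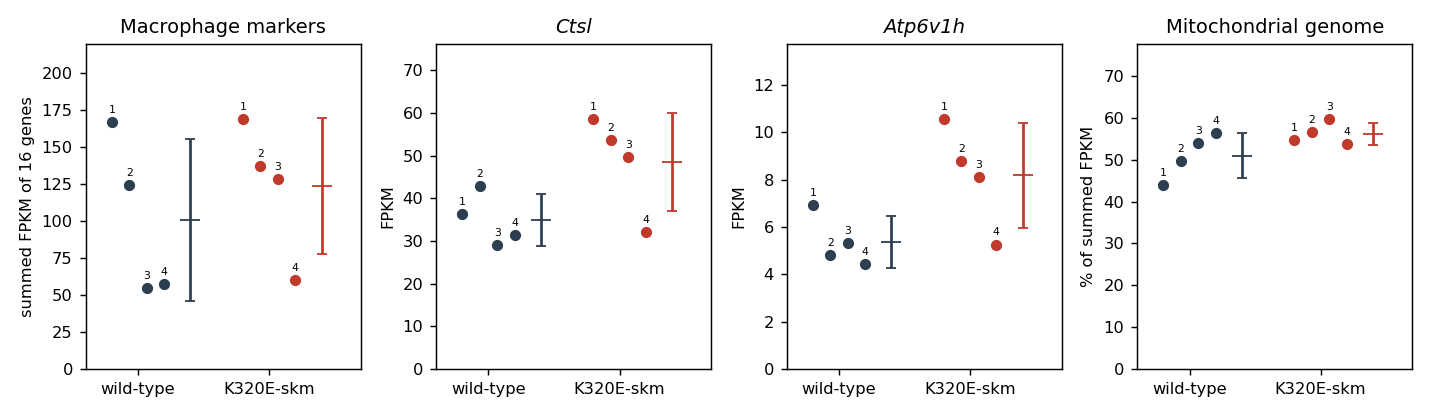
Summed FPKM of the 16 macrophage genes, FPKM of Ctsl and Atp6v1h, and the share of FPKM on the mitochondrial genome in percent, for each library numbered by replicate, with the mean and SD of each genotype. K320E-skm 4 is the lowest K320E-skm point in the first 3 panels, and wild-type 1 is high for macrophage genes and lowest for the mitochondrial share.

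In wild-type muscle the levels of the members spanned from 163 FPKM for Ctsd to 1.58 FPKM for Tfe3. After Ctsd came Lamp1 at 100.1 ± 16.3, Map1lc3a at 88.4 ± 21.7, Gabarap at 55.2 ± 7.11, Ctsl at 34.9 ± 6.14 and Ctsb at 32.9 ± 3.89 FPKM (SD, n = 4), of which Lamp1 and Map1lc3a, and likewise Ctsl and Ctsb, differed by less than their spread. At the lower end were Atg7, Atg2a and Tfe3 at 2.49, 2.39 and 1.58 FPKM. Cathepsin, Lamp1, LC3 and GABARAP genes thus held the upper places, and the conjugation enzymes the middle and lower ones. The median member was at 11.3 FPKM against 4.74 FPKM for the median tested gene, 26 of 31 members were above that gene, and 6 were among the upper 10% of tested genes. Together the members made up 0.0897% of all FPKM in wild-type and 0.0927% in K320E-skm muscle.

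The other genes of the same steps, 152 on a list, were set beside the members. Of these, 151 had values and 138 were tested, and 0 passed the adjusted limma threshold. At an unadjusted limma p under 0.05, 3 were higher and 10 lower in K320E-skm muscle, 2.17% and 7.25% of those tested, against 1.12% and 12.0% of all genes. Their median log2 fold change was −0.09, with 35 above 0 and 103 below, and after rescaling the median was 0.05, with 84 above 0 and 54 below. The direction of the calls turned as well: on the rescaled scale 10 were higher and 4 lower at an unadjusted limma p under 0.05, 7.25% and 2.90% of those tested, against 5.08% and 4.77% of all genes. As deposited, 12 had all K320E-skm libraries below all wild-type libraries, 8.70% against 9.59% of all genes, and none the reverse. After rescaling 2 were left below, Slc17a5 and Rragd (1.45% against 3.07%), and 2 stood above, Cd63 and Atp6v0c (1.45% against 2.89%).

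Among 8 further initiation and lipid kinase genes the median log2 fold change was −0.15. Nrbf2, a subunit of the Beclin 1 complex, averaged 2.66 ± 0.297 and 3.75 ± 0.868 FPKM without overlap (log2 fold change −0.36), and Rubcn, which restrains that complex, 3.58 ± 0.372 and 4.53 ± 0.628 FPKM (−0.27), while Atg101, a partner of Atg13, had 0.02. After rescaling these 3 had −0.23, −0.12 and 0.19, all with overlap. Of 24 further membrane, conjugation and fusion genes none had an unadjusted limma p under 0.05, and their median was −0.14. The 2 with the highest level were Rab7, the GTPase of late endosomes, at −0.25 and Vmp1 at −0.18, or −0.07 and −0.01 after rescaling. The 10 further cargo receptors had a median of −0.17. Fundc1, a mitophagy receptor of the outer mitochondrial membrane, averaged 7.34 ± 0.798 and 9.69 ± 1.02 FPKM without overlap (−0.36), Sqstm1, which encodes p62, 166 ± 15.5 and 161 ± 23.7 FPKM (0.05), and Bnip3 58.7 ± 6.49 and 67.5 ± 7.41 FPKM (−0.20). Rescaling gave Fundc1 −0.20 with overlap, Sqstm1 0.22 and Bnip3 −0.02.

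The 35 further lysosomal hydrolases tested had a median of −0.07, with 12 above 0 and 23 below, and the highest of them, 0.13, lay below the 0.18 of Ctsd and the 0.44 of Ctsl. Ctsc, another cathepsin, averaged 8.78 ± 1.16 and 13.2 ± 4.45 FPKM (−0.50, limma adjusted p = 0.375). Ids, a sulfatase, averaged 1.90 ± 0.128 and 2.65 ± 0.360 FPKM without overlap (−0.32). Psap and Gaa, the 2 with the highest level, had −0.17 and −0.09. After rescaling Ctsc and Ids had −0.33 and −0.20, both with overlap, and Psap and Gaa 0.00 and 0.08. Of 16 further lysosomal membrane genes, whose median was −0.11, Cd63, a tetraspanin of late endosomes and lysosomes, averaged 21.1 ± 3.26 and 16.2 ± 2.47 FPKM (0.36, limma adjusted p = 0.375, and 0.53 with an adjusted p of 0.274 after rescaling). Slc17a5, the sialic acid exporter, Laptm4b and Laptm4a had −0.38, −0.36 and −0.26 without overlap, and Scarb2 −0.20 with overlap. On the rescaled scale Slc17a5 had −0.29, Laptm4b −0.20, Laptm4a −0.08 and Scarb2 −0.03, and of these Slc17a5 alone had no overlap.

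Atp6v1h was likewise set beside 15 further subunits of the proton pump, whose log2 fold changes ran from −0.25 to 0.08 with a median of −0.08, all below the 0.51 of Atp6v1h. None of the 15 had an unadjusted limma p under 0.05, and Atp6v1g1 and Atp6v1e1, those with the highest level, had −0.16 and −0.08. After rescaling, 13 of the 15 were above 0, and Atp6v0c, which encodes a subunit of the membrane ring, was higher with no overlap (0.22, unadjusted limma p under 0.05, limma adjusted p = 0.499). As deposited Atp6v0c averaged 29.6 and 28.7 FPKM (log2 fold change 0.04, SE 0.13).

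The 30 tested regulators of the TORC1 kinase, FoxO factors and TFEB had a median of −0.07, and they held the widest values. Ddit4, which encodes the TORC1 inhibitor REDD1, averaged 16.8 ± 6.86 and 7.24 ± 4.37 FPKM (SD, n = 4 each), with overlap (log2 fold change 1.20, adjusted p = 0.337 from limma). Ppp3cb, a catalytic subunit of calcineurin, the phosphatase that activates TFEB, averaged 19.3 ± 1.46 and 28.6 ± 4.70 FPKM without overlap (−0.53, unadjusted p = 0.00453 and adjusted p = 0.310 from limma), and Ppp3ca, the other catalytic subunit in muscle, 28.3 ± 4.84 and 35.8 ± 6.24 FPKM (−0.32). Rragd, a GTPase that ties TFEB and TORC1 to the lysosome, averaged 21.3 ± 1.91 and 28.9 ± 3.16 FPKM without overlap (−0.42). Lamtor1, which anchors those GTPases, had −0.06. After rescaling Ppp3cb had −0.36 with overlap, Ppp3ca −0.15, Rragd −0.25 without overlap, Lamtor1 0.12 and Ddit4 1.36.

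**Figure D5:**
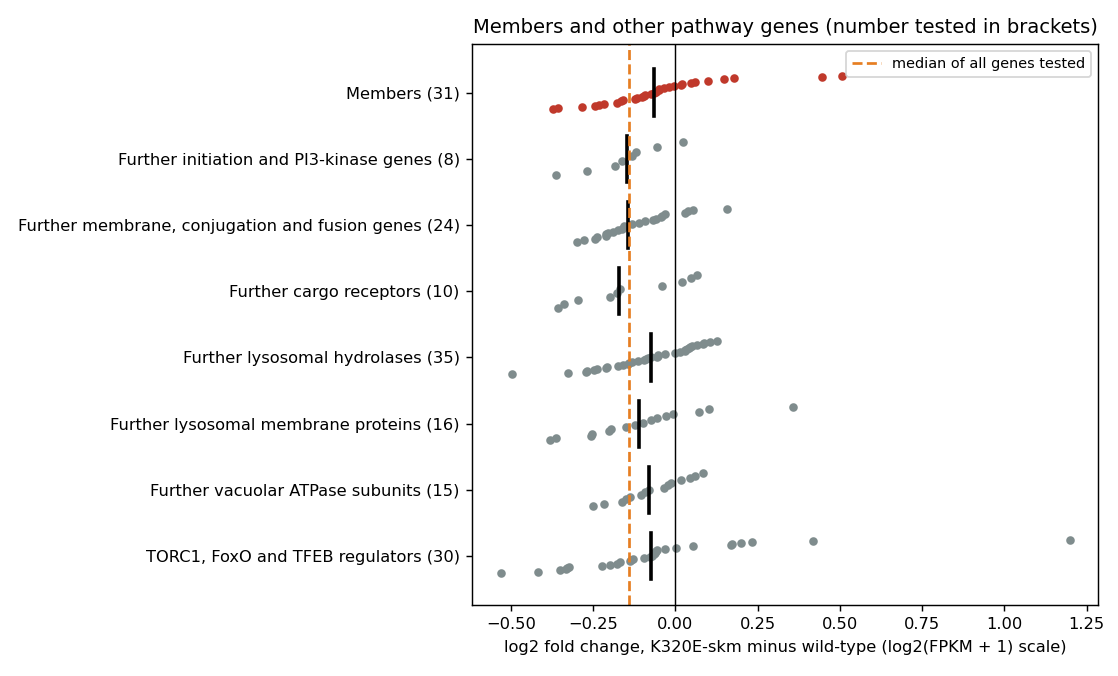
Each point is the log2 fold change of a gene, with the members in red and the other pathway lists in grey, black bars for the median of each list and a dashed line for the median of all genes tested. The members' median of −0.06 and those of the 7 lists, −0.17 to −0.07, lie on both sides of the dashed line at −0.14.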

How the data were processed

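Total RNA of the tibialis anterior was measured in 8 libraries, 4 K320E-skm and 4 wild-type, grouped by their titles. The authors deposited FPKM per Ensembl gene in a single table, made with CASAVA, TopHat2 2.0.10, Cufflinks 2.1.1 and the build mm10, per the submitters' processing notes. Annotation release and strand setting: not given in the sources used here. As FPKM are relative to all fragments of a library, a larger mitochondrial share lowers every other gene. Cufflinks divides fragments among overlapping genes, and 9 members share exon bases with another gene, so their values are less certain. All 8 columns matched a sample, and no pair of libraries was identical. GENCODE M21 matched 47864 of 48328 IDs. The labels do not describe separate origins further, so the p-values cover only the spread between the 8 samples.

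The values were tested as log2(FPKM + 1), which understates changes of low genes, with limma 3.58.1 in R 4.3.3, terms for sex label and genotype, empirical Bayes with trend, two-sided, on 10521 genes at 1 FPKM or more in at least 4 libraries, with 5 residual degrees of freedom and Benjamini-Hochberg adjustment over all of them. The fit was tested on simulated data. For single values, exact two-sided permutation tests were used (70 ways to split the libraries, smallest p 0.0286). Python 3.11.15 with pandas 2.3.3 and matplotlib 3.10.9 served for tables and figures.

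The members and all gene lists were chosen with earlier results of these data known. Named were all members and, of each pathway list, up to 3 genes with the smallest p under 0.05 and the 2 with the highest FPKM; Atp6v0c and Cd68 were named after their values were seen. Cell type lists (muscle fibre, macrophage, endothelium, fibroblast, adipocyte, red blood cell, Schwann cell, smooth muscle, satellite cell) are given as sums and gene counts. Acta1 and Cdh15 are not analysed here. Alternatives were median-ratio rescaling and quantile normalization, fits with no sex term, with a replicate block or with robust empirical Bayes, a pseudocount of 0.1, a filter of 5 FPKM or none, and leaving out each library. Scaling to the summed FPKM outside the mitochondrial genome was chosen after seeing the data.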

Additional observations from a re-analysis of the deposited data

Results flagged for a closer look

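In 62 groups of 4 values, 1 for each member and genotype, 4 had a library whose distance to the nearest other as a share of the whole range exceeded the 95% critical value of Dixon's test. Chance gives about 1 in 20 such groups. Wild-type 1 was the highest wild-type library for Becn1 at 25.99 FPKM and for Wipi2 at 6.76 FPKM. K320E-skm 2 was the highest K320E-skm library for Gabarapl1 at 19.06 FPKM and for Lamp1 at 101.6 FPKM. Wild-type 1 and K320E-skm 2 were also the libraries in which the most members had their highest value of all 8, 16 and 8 of 31. A limma fit with the product of genotype and sex label gave 0 members an unadjusted p under 0.05 for that product. The smallest adjusted p of a member was 0.999. Of all 10521 genes tested, 239 had an unadjusted p under 0.05, of which 2 passed after adjustment. That fit takes K320E-skm 4 as male by its label, against its Xist and Ddx3y values, so it does not compare the sexes reliably.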

How the results depend on the processing

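No member and no other pathway gene passed the adjusted limma threshold under any alternative or without any single library, with the numbers at an unadjusted p under 0.05 as follows. For members the number was 2 as reported, 4 after median-ratio rescaling, 4 after quantile normalization and 4 after scaling to the summed FPKM outside the mitochondrial genome. Of all genes, 118 were higher and 1265 lower of 10521 as reported, and 535 and 503 of 10538 after median-ratio rescaling. Quantile normalization gave 508 and 543 of 10521, and scaling outside the mitochondrial genome 467 and 329 of 10563. Leaving out single libraries gave 0 (without K320E-skm 3) to 4 (without K320E-skm 4), with 1 left without K320E-skm 1, K320E-skm 2 or wild-type 4. Of all genes, 89 were higher and 623 lower of 10405 without K320E-skm 3, and 185 and 991 of 10401 without K320E-skm 4. They were 108 and 678 of 10384 without K320E-skm 1, and 68 and 1170 of 10337 without K320E-skm 2. Without wild-type 4 they were 74 and 986 of 10380. For other pathway genes the number was 13 as reported, 8 with the filter of 5 FPKM, and 4 (without K320E-skm 1) to 16 (without wild-type 3). Of all genes, 68 were higher and 691 lower of 4864 with that filter, and 90 and 1775 of 10387 without wild-type 3. Among all genes, the number past the adjusted threshold was 2 as reported, 1 with no filter, 1 with the filter of 5 FPKM and 1 to 2 without single libraries.

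Relative to the median gene, Atg9a went from −0.02 to 0.0072 with the pseudocount of 0.1, 0.0112 after median-ratio rescaling, 0.0116 after quantile normalization and 0.0122 after scaling outside the mitochondrial genome. Lamp1 went from 0.02 to −0.0248 after quantile normalization. Without single libraries these relative log2 values changed sign within ranges of −0.0883 to 0.0151 for Ulk1, −0.0293 to 0.0990 for Becn1, −0.0386 to 0.1480 for Atg2a, −0.0849 to 0.0401 for Atg9a, −0.0309 to 0.0975 for Atg4b, −0.0831 to 0.0238 for Atg5, −0.0100 to 0.0624 for Lamp1, −0.0647 to 0.1014 for Lamp2 and −0.014 to 0.1576 for Mcoln1. The cause was not tested.

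In a fit with the replicate block and no sex term, 3 members had an unadjusted limma p under 0.05. Atp6v1h and Ctsl were higher, against 152 of all 10521 genes, and Rb1cc1 was lower, against 1260. No member passed after adjustment, and 2 genes passed in all. Libraries of the same number correlated at 0.0233 to 0.157 in their deviations, which is not over 0.1 in every pair, so the numbers were not taken to pair the mice, although 6 of 8 correlated best with their own number. Depth is known only relative between libraries, so no counting error can be given for low members such as Tfe3.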
